A study of Rattus norvegicus with 63 samples.

Results

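The livers described here came from 9 male rats of the Wistar Hanover strain (Crl:WI[Gl/BRL/Han]IGS BR) that received only a dosing vehicle, out of 63 rat livers profiled on miRNA arrays in a study of short-term treatment with carcinogens. Vehicle arrays scanned on the same day were taken: 6 rats given corn oil (CO) and 3 rats given methylcellulose (MC). Of the CO rats, 3 were dosed for 14 days (control set 4) and 3 for 7 days (control set 3), and the 3 MC rats were dosed for 14 days (control set 6). All rats were 8 to 10 weeks old and were gavaged with 5 ml of vehicle per kg body weight per day, so that no untreated, ungavaged animal is among them. The labels name the second vehicle methylcellulose, whereas the methods of the study use this name and also describe a carboxymethyl cellulose suspension. Whole liver was extracted, so that fewer cells of a type and less of a miRNA per cell cannot be told apart in any value below. A further 9 MC rats of other control sets were scanned on other days and were used only to check the order of the miRNAs.

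miRNAs are short RNAs that pair, mainly through a seed at bases 2 to 8 from their 5′ end, with messenger RNAs and lower the output of those messengers. miR-122 is made almost exclusively by hepatocytes, where it acts in cholesterol and lipid metabolism, and it is known as the most abundant miRNA of mammalian liver. Corn oil delivers a daily load of fat whereas methylcellulose is not digested, so the comparison of both vehicles asks whether the carrier alone leaves a trace among liver miRNAs. It also shows how far healthy rats differ from each other, against which the values of treated rats are read.

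The array carries probes for 350 rat miRNAs, of which 78 were detected on all 9 arrays by the mark of the scanner software, 30 on 1 to 8 arrays and 242 on none. Values are spot brightness on the log2 scale after quantile normalization over all 63 arrays and summary over probes, without background subtraction, so that the floor lies near 7.4 and differences between dim miRNAs are compressed. The median level was 8.44 for miRNAs detected on all 9 arrays and 7.41 for miRNAs detected on none. Brightness also depends on how well a probe binds, so that the order given here is one of signal and not of molecules. No spot was saturated on these arrays, and the scanner software rated all 9 of them for evaluation rather than as in range.

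The mature sequences of leading miRNAs are given grouped by seed, because members of a seed family share targets and can share array signal. Sequences are from RefSeq (GRCr8), 5′ to 3′, with the seed in capitals, and all 32 array names looked up were matched. Of 693 mature rat miRNAs in the table, the seeds of miR-122, miR-21 and miR-22 occur in 1 each, and that of miR-192, a hepatocyte miRNA of rank 5, occurs in 2.
miR-122: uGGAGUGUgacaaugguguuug
miR-21: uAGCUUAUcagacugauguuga
miR-22: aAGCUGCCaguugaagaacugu
miR-192: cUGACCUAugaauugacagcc
The let-7 members among the 20 brightest share 1 seed and differ in the remainder.
let-7f: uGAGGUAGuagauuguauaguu
let-7a: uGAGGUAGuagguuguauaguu
let-7c: uGAGGUAGuagguuguaugguu
let-7b: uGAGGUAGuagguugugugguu
let-7d: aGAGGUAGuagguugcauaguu
The miR-29, miR-26 and miR-23 families were each present with all members named here among the 22 brightest miRNAs.
miR-29a: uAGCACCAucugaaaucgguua
miR-29c: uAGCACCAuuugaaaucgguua
miR-29b: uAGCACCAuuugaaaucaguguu
miR-26a: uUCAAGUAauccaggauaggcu
miR-26b: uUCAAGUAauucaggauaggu
miR-23b: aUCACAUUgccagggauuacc
miR-23a: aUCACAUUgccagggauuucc
The erythroid pair miR-451 and miR-144, the most variable miRNAs of these livers after quantile normalization, do not share a seed.
miR-451: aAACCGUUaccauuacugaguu
miR-144: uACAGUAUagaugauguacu

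Several of these sequences are 1 base apart. Counted from the 5′ end, let-7a differs from let-7f by A12G, let-7c from let-7a by A19G, let-7b from let-7c by A17G, miR-29c from miR-29a by C10U, and miR-23a from miR-23b by A19U. Values of such neighbours can therefore share signal, and their separate levels are uncertain. In GRCr8 the miR-122 sequence lies at chr18:61028831-61028852 on the plus strand, within a transcribed pseudogene of the annotation (LOC134482951). The miR-21 sequence lies at chr10:71902653-71902674 (minus strand) and that of miR-22 at chr10:60805387-60805408 (plus strand). For neither was an enclosing gene found, but genes with a symbol beginning with Mir were left out of that search. miR-23b lies within Aopep (chr17:1819405-1819425, minus strand), miR-26a within Ctdspl (chr8:127633063-127633084, plus strand) and miR-26b within Ctdsp1 (chr9:83425723-83425743, plus strand). The annotation table gives neither the strand nor the exons of these enclosing genes.

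Liver signal was concentrated in very few miRNAs. miR-122 alone gave 48.7% of the total miRNA signal on average (47.4 to 51.8% over the 9 arrays), computed from the background-subtracted total per miRNA. The 10 brightest miRNAs gave 76.3 to 79.2% and the 20 brightest 86.6 to 89.1%. The let-7 family with miR-98 contributed 10.4% and the 3 miR-29 members 3.68%. After miR-122, miR-21, which is broadly expressed and known to rise in injured liver, held 8.50% and miR-22, also broadly expressed, held 4.42% of the signal.

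**Figure D1:**
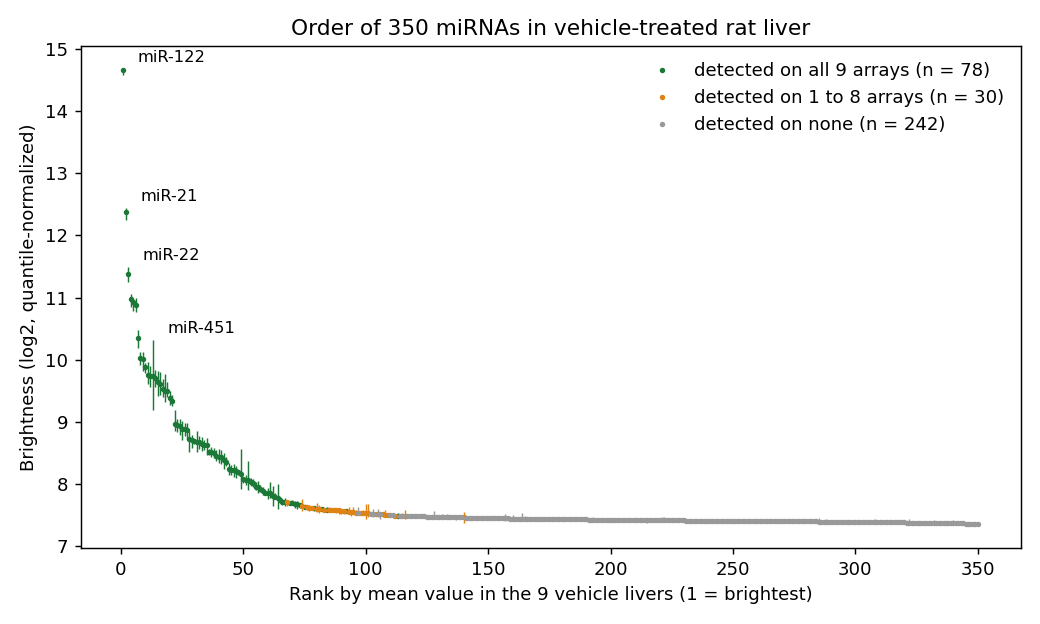
Brightness (log2, y axis) of all 350 miRNAs against their rank by mean value in the 9 vehicle livers (x axis); points are means, vertical lines run from the lowest to the highest rat, and colours give on how many of the 9 arrays a miRNA was detected. miR-122 stands apart at 14.66, the curve flattens towards its floor beyond the miRNAs detected on all arrays, and the line of miR-451 is the longest.

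In single livers miR-122 read 14.67, 14.65 and 14.65 in the CO rats dosed for 14 days, 14.68, 14.67 and 14.59 in those dosed for 7 days, and 14.67, 14.68 and 14.67 in the MC rats. One CO rat (replicate 6) was the lowest, and the groups overlapped. Quantile normalization gives the brightest spots nearly the same value on every array, so the SD of miR-122 over the 9 rats was 0.03 after it, 0.05 with the processed signal scaled to its 75th percentile and 0.24 with median scaling alone. miR-21 read 12.34, 12.40 and 12.24 (CO, 14 days), 12.44, 12.37 and 12.42 (CO, 7 days) and 12.42, 12.44 and 12.26 (MC). It was second in every liver, 4.89-fold below miR-122 in the mean.

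The order was clear at the top and became loose below it. The ranges over the 9 rats did not overlap between miR-122 and miR-21, miR-21 and miR-22, and miR-22 (mean 11.38) and let-7f. let-7f (10.97), miR-192 (10.92) and let-7a (10.89) formed a group with overlapping ranges, although let-7f was above miR-192 in 9 of 9 rats. Below that group, miR-29a (10.36) was separated on both sides, from let-7a above and from let-7c below, without overlap. From let-7c (10.03) to let-7d (9.39), every miRNA overlapped its neighbour: these were miR-26a, miR-26b, miR-23b, miR-101b, miR-451, let-7b, miR-19b, miR-16, miR-29c, miR-29b and miR-126. Within this stretch miR-26a was above miR-26b in 9 of 9 rats, whereas no other neighbours kept 1 order in all rats. miR-101b and miR-451, for example, had means that differed by less than 0.01. miR-192 and miR-101b are hepatocyte-enriched, miR-126 is made by endothelial cells from within Egfl7, and miR-19b belongs to the growth-promoting miR-17 to miR-92 cluster.

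**Figure D2:**
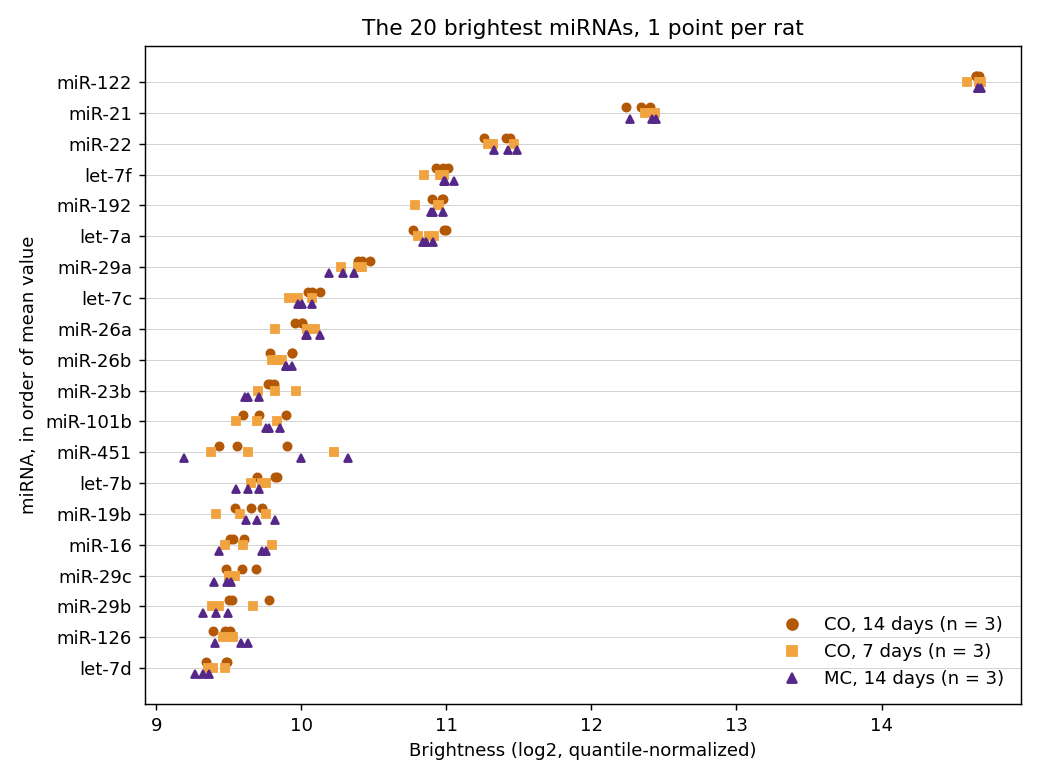
Brightness (log2, x axis) of the 20 brightest miRNAs (y axis, in order of the mean), with 1 point per rat and a colour and marker for each vehicle set (n = 3 each). The sets lie over one another in nearly every row, and miR-451 is spread from 9.19 to 10.32.

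The same 20 miRNAs were also the brightest in the 9 MC livers of the other control sets, scanned on other days, and 77 of the 78 miRNAs detected on all 9 arrays were detected on all of those arrays, too. The total signal of the scanner software, the processed signal and the value table deposited by the authors each kept all 20 among the first 20. Taking the brightest probe of each miRNA kept 19 and left out miR-29c.

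Most hepatocyte markers were detected, and most markers of muscle, pancreas and nerve tissue were not. Of the hepatocyte list, 5 of the 6 members on the array were detected on all 9 arrays, against 78 of all 350 miRNAs. Besides those above they included miR-101a and miR-194 (8.93). miR-194 is encoded within 259 bases of chromosome 1 together with miR-192, and also on chromosome 13. Of this list only miR-215 was detected on none. Striated muscle markers were not detected, with 6 of 6 on no array, including miR-1 and miR-206. Nor were the 3 pancreatic markers (miR-375, miR-216a, miR-217), and of 6 neural markers miR-219-5p alone was detected, on 1 array. Of all 350 miRNAs, 242 were likewise detected on none of the 9 arrays, so non-detection of such short lists is not particular to them.

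miRNAs of the non-parenchymal cells of liver were present at lower brightness. Of 8 leukocyte markers on the array, miR-142-3p (8.38), miR-146a (8.21) and miR-223 were detected on all 9 arrays and miR-146b and miR-342-3p on none. Of 4 endothelial markers, miR-126 (9.50) and miR-10a-5p (8.51) were detected on all 9 arrays, miR-126* on 2 and miR-10b on none. Of the 5 markers of stellate and smooth muscle cells, miR-143 (8.68) and miR-199a-3p (8.06) were detected throughout, whereas miR-145, encoded beside miR-143, was detected on no array. Of 9 markers of biliary and other epithelium, miR-200b (7.76) alone was detected on all 9 arrays, miR-200a (7.65) on 7 and 4 on none.

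Beyond these markers, families with broad expression were nearly complete. All 8 members of the let-7 family, all 5 of the miR-30 family (brightest miR-30a at 8.51 and miR-30b-5p at 8.43), all 3 of the miR-29 family and all 5 of the miR-23, miR-24 and miR-27 clusters were detected on all 9 arrays. Of the miR-17 to miR-92 cluster and its relatives, 7 of 11 were, led by miR-19b (9.64) and miR-92a (8.88), while miR-18a was detected on none. In the p53 and injury list, miR-21 stood far above miR-34a (7.85), a target of p53, and miR-34b and miR-34c were on none of the 9 arrays. A total of 54 miRNAs undetected in all 9 livers were detected on at least 1 array elsewhere among the 63, for example miR-96 on 39 arrays. Detection also differed between vehicle arrays: 81 to 102 miRNAs were detected per array here and 96 to 141 in the other MC livers. The part of treatment in these 54 was not tested.

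Some of the miRNAs detected on all 9 arrays are encoded side by side in GRCr8, among them let-7a, let-7f and let-7d (chr17:16320145-16322348), miR-23b, miR-27b and miR-24 (chr17:1818672-1819462) and miR-144 with miR-451 (chr10:63459409-63459634). Further loci encode let-7a (chromosome 8), let-7f (chromosome X) and miR-24 (chromosome 19), so their values are not of these clusters alone.

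After quantile normalization rats differed little in most miRNAs, and the erythroid pair differed most. Over the 78 miRNAs detected on all 9 arrays, the SD between rats of the same vehicle set had a median of 0.06 on the log2 scale. With the processed signal, which is background-subtracted, that median was 0.11. The highest SDs after quantile normalization were those of miR-451 (0.44) and miR-144 (0.21), followed by miR-16 (0.14) and miR-29b (0.13). miR-451 and miR-144 also ranked first and second in spread with the processed signal, whereas miR-16 fell to rank 12 there. With median scaling miR-451 again had the highest SD (0.47). There miR-144 (0.21) lay below several bright miRNAs, among them miR-122 (0.26), miR-192 (0.25) and let-7a (0.24). miR-451 and miR-144 are made in maturing red cells, and miR-451 is abundant in circulating erythrocytes. miR-451 read 9.90, 9.56 and 9.43 (CO, 14 days), 9.63, 9.38 and 10.22 (CO, 7 days) and 9.19, 10.32 and 10.00 (MC), a 2.18-fold range. miR-144 read 8.19, 8.05 and 8.07, 8.17, 7.92 and 8.25, and 7.96, 8.56 and 8.29 in the same order.

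The liver of MC replicate 2 was the highest for both, and that of MC replicate 1 was the lowest for miR-451, so that the spread lay within sets. The 2 miRNAs rose and fell together over the 9 rats, with Pearson's r = 0.91 (exact permutation p = 0.00031) and Spearman's rho = 0.95 (exact permutation p = 0.00035). Within the 6 CO rats, r was 0.86 (exact permutation p = 0.029) and rho 0.94 (exact permutation p = 0.017). Without MC replicate 2 and CO replicate 6, the farthest from the median of miR-451, r was 0.91 over 7 rats (exact permutation p = 0.0042). This was the only relation between miRNAs that was tested across rats, and it was chosen after the values were seen. How much blood a liver sample held was not measured, and its part in the values was not tested.

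Corn oil and methylcellulose livers were compared over the 162 miRNAs detected on at least 1 of the 63 arrays. No miRNA passed an adjusted p of 0.05 in limma (percent called 0%, lowest adjusted p 0.306), and 7 miRNAs (4.32%) had an unadjusted p under 0.05. The 6 CO rats all lay above the 3 MC rats for 4 miRNAs (2.47%) and all below for 1 (0.617%). Among the 78 miRNAs detected on all 9 arrays the difference had a median size of 0.03 and reached at most 0.16 on the log2 scale (miR-144, lower in CO). The largest size was 0.23 with normexp background correction (miR-144) and with median scaling (miR-451), and 0.43 with the processed signal (miR-144). In the same fit, the 15 compound groups of the study gave 0 to 60 calls each against their own controls, with 2 compounds at 0. Some compounds, among them Diethylstilbestrol with 60 calls, differed from their controls in scan day and dosing duration as well. Their counts are therefore no like measure for vehicle sets scanned on the same day. A miss of the threshold does not show that both vehicles act alike, so the intervals are given: for 77 of the 78 miRNAs the 95% interval of the difference lay within a 1.5-fold change in either direction, and for 73 within 1.25-fold. The exception at 1.5-fold was miR-451 (-0.15, interval -0.75 to 0.46). With the processed signal, which is background-subtracted, 72 lay within 1.5-fold and 47 within 1.25-fold, with miR-144 past 2-fold, and with median scaling 68 and 29. All these intervals rest on the spread within groups, so a difference between the slides of the vehicle sets is not covered by them.

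For miR-122 the difference of CO from MC was -0.02 (interval -0.08 to 0.04) after quantile normalization, which narrows the spread of this miRNA. With the processed signal the difference was 0.0012 (interval -0.18 to 0.18), and with median scaling the difference was -0.11 (interval -0.68 to 0.47). Each vehicle set lay on a slide of its own, so that slide and vehicle cannot be told apart from these 9 arrays. With slide as a fixed block, which links the slides only through treated rats (C.I Direct Black and Phenobarbital sodium groups), 6 miRNAs were called: miR-122 was 0.26 higher in CO (limma, adjusted p = 3.32e-06), and miR-101b (-0.58), miR-20a (-0.47), miR-126* (-0.13), miR-188 (-0.11) and miR-21* (-0.09) were lower. These 6 are named by that outcome, after the values were seen, and miR-188 and miR-21* were detected on none of the 9 arrays. The slide of the MC rats was linked to the other slides by only 1 array, C.I Direct Black replicate 1. The differences under this block therefore rest on that array, and their p-values do not show this limit.

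**Figure D3:**
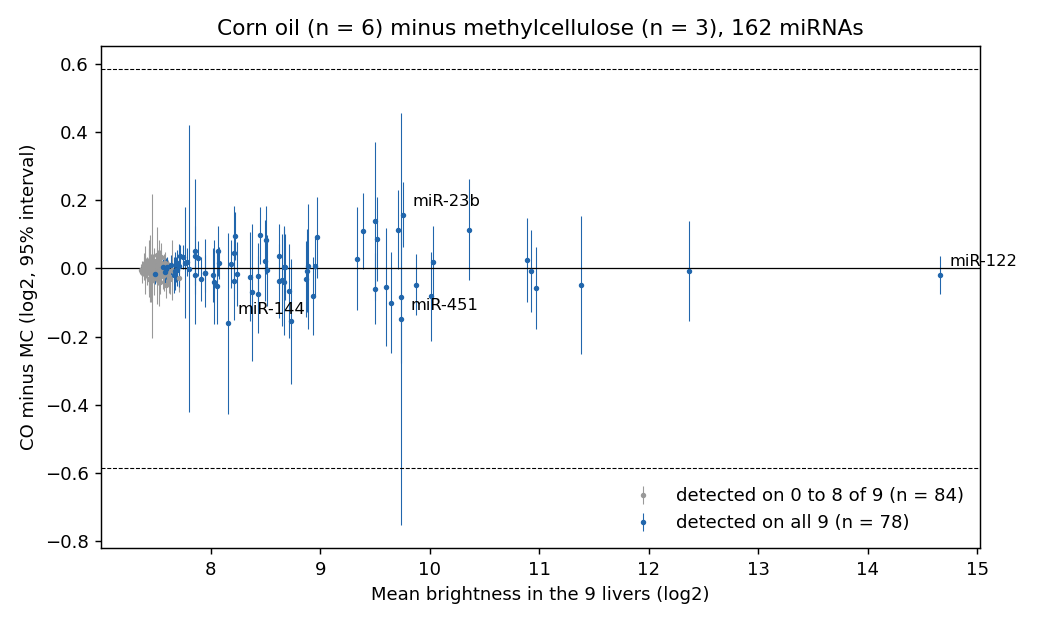
CO (n = 6) minus MC (n = 3) in log2 (y axis, with 95% intervals from limma) against mean brightness in the 9 livers (log2, x axis) for 162 miRNAs; dashed lines mark a 1.5-fold change. The miRNAs lie around 0 at every brightness, miR-23b is the highest at 0.16, and the interval of miR-451 alone reaches past the dashed line.

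The 5 miRNAs with the smallest p were miR-23b, miR-151, miR-219-5p, miR-126* and miR-107. miR-23b, encoded with miR-24 and miR-27b, read 9.81, 9.78 and 9.77 (CO, 14 days), 9.82, 9.96 and 9.70 (CO, 7 days) and 9.61, 9.70 and 9.64 (MC). The CO values were higher except that CO replicate 6 (9.702) lay just under MC replicate 2 (9.704). The difference was 0.16 (SE 0.05, 1.11-fold, adjusted p = 0.306 in limma). Without CO replicate 6 it was 0.19 and the adjusted p in limma fell to 0.039. Leaving out any other rat gave 0.12 to 0.18 and no call. For miR-23b the difference under other scalings and blocks ranged from 0.03 (median scaling) to 0.26 (processed signal scaled over all probes), without a call. Its near-identical relative miR-23a differed by 0.09 (interval -0.03 to 0.21), and its cluster partners miR-24 and miR-27b by 0.01 and -0.03. miR-24 is also encoded beside miR-23a, so its value is not of the miR-23b cluster alone.

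miR-151 read 8.20 to 8.30 in CO rats and 8.14 to 8.20 in MC rats, without overlap and with a difference of 0.09 (SE 0.04, adjusted p = 0.777 in limma). miR-107, which lies within Pank1 and acts in lipid and glucose metabolism, read 8.52, 8.54, 8.44, 8.49, 8.41 and 8.45 in CO replicates 1 to 6 and 8.39, 8.39 and 8.37 in MC rats. The groups did not overlap, with a difference of 0.10 (SE 0.04, adjusted p = 0.777 in limma). miR-103, which differs from miR-107 by C22G and lies within Pank2, has an interval of -0.03 to 0.06. miR-219-5p (-0.04) and miR-126* (-0.05) were detected on 1 and 2 of the 9 arrays, close to the floor, and in the processed signal scaled over the detected miRNAs both had a difference of 0 because their values sat at the floor.

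Outside that rule, the remaining miRNAs without overlap were miR-532-5p and miR-23a*, both higher in CO by 0.02 and detected on none of the 9 arrays, and miR-193. miR-193 was the one that was lower in all CO rats: it read 8.51, 8.73, 8.74, 8.78, 8.72 and 8.57 in CO replicates 1 to 6 and 8.83, 8.82 and 8.85 in MC rats, with a difference of -0.16 (interval -0.34 to 0.03, adjusted p = 0.946 in limma). These 3 were named after their values were seen.

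**Figure D4:**
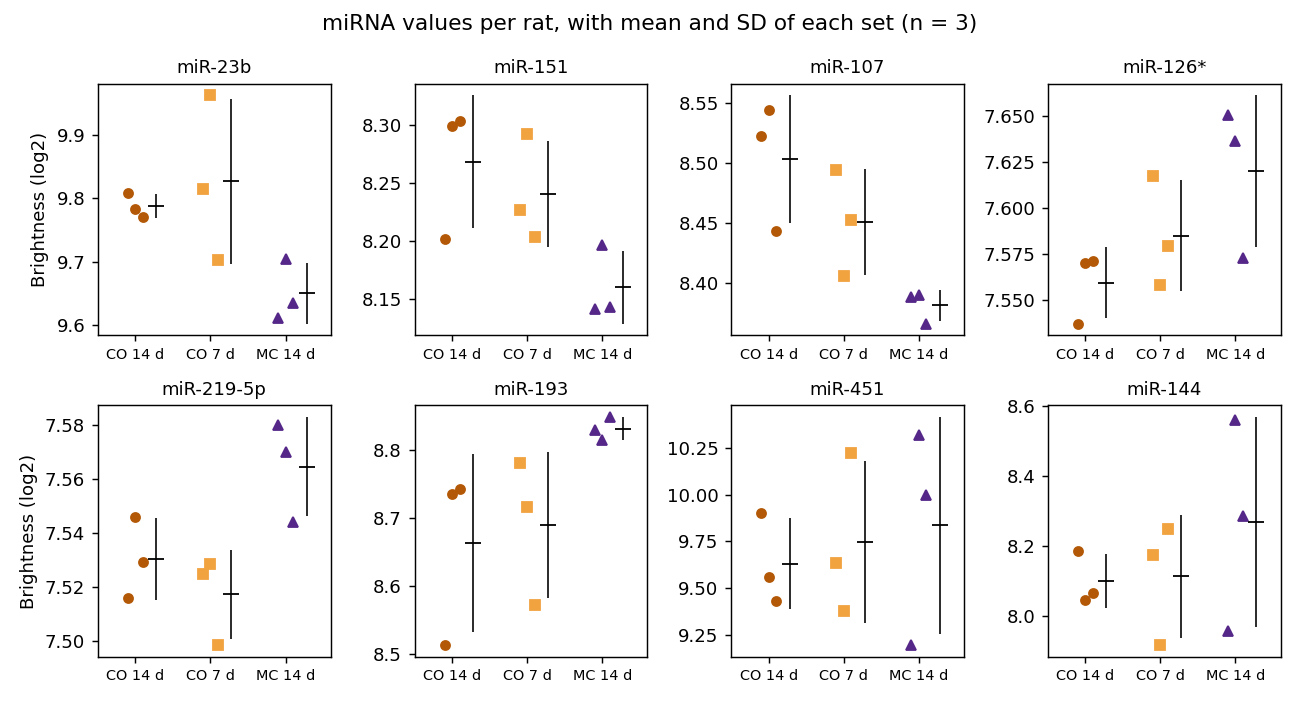
Brightness (log2, y axis, own scale in each panel) of 8 miRNAs per rat in the 3 vehicle sets (x axis), with the mean and SD of each set (n = 3) as a black bar. miR-107 and miR-151 lie higher in every CO rat than in any MC rat and miR-193 lower, while miR-451 and miR-144 are spread widely within sets.

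By groups, no member of any list was called, and medians of CO minus MC are set against -0.0041 over all 162 miRNAs. Over the 78 miRNAs detected on all 9 arrays the median was -0.0061 in this fit and -0.06 with the processed signal or median scaling, so that list medians under those settings are shifted downwards as well. The lipid and glucose metabolism list (13 tested of 14 on the array, 1 with an unadjusted p under 0.05) had a median of -0.02, with 5 members higher in CO, and one of -0.05 with the processed signal and -0.04 with median scaling. Its values ranged from -0.04 to 0.10, the latter for miR-107. miR-33, which lies in a sterol regulator gene and represses cholesterol export, had an interval of -0.05 to 0.01, and miR-27b one of -0.14 to 0.08. miR-34a differed by 0.05 (interval -0.16 to 0.26). In the hepatocyte list (5 tested) 0 members were higher in CO and the median was -0.02, with miR-101b and miR-194 at -0.08 each and miR-192 at -0.01. That median was -0.12 with the processed signal and -0.11 with median scaling.

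The 3 miR-29 members, which repress collagens, were higher in CO by 0.11 (miR-29a, interval -0.03 to 0.26), 0.09 (miR-29c, interval -0.04 to 0.21) and 0.14 (miR-29b, interval -0.09 to 0.37), with no call. Their median of 0.11 was 0.19 with the processed signal and 0.06 with median scaling. The let-7 median was 0.03, with let-7b and let-7d at 0.11 each and let-7f at -0.06, but it turned to -0.04 with median scaling. The miR-30 family had a median of -0.02 (miR-30b-5p at -0.08, miR-30d at -0.04) and the miR-17 to miR-92 group one of -0.02 (miR-19b at -0.10, miR-20a at -0.07). With the processed signal and with median scaling, these medians were -0.09 each for the miR-30 family, and -0.12 and -0.06 for the miR-17 to miR-92 group. The miR-23, miR-24 and miR-27 clusters had a median of 0.01, which turned to -0.07 with the processed signal and -0.10 with median scaling.

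Among markers of other cell types, the erythroid pair was lower in CO by 0.15 (miR-451) and 0.16 (miR-144, interval -0.43 to 0.10), within the spread between rats. Their median was -0.16 in this fit, -0.19 with normexp, -0.22 with median scaling and -0.29 with the processed signal. In leukocyte markers the median was -0.00033, with miR-142-3p at -0.07 and miR-146a at 0.05. Endothelial markers had a median of -0.02, with miR-10a-5p at 0.08 and miR-126 at -0.06. For stellate and smooth muscle markers the median was -0.0039, with miR-199a-3p at -0.05 and miR-199a-5p at -0.01, and it was -0.06 with the processed signal and -0.05 with median scaling. Epithelial markers had a median of -0.0046, with miR-96 at 0.04 and miR-141 at -0.03, both close to the floor. In the p53 and injury list it was 0.02, with miR-34b at 0.02 and miR-21 at -0.01. The few tested members of the muscle, pancreas and neural lists (miR-499 at -0.01, miR-375 at 0.0032, miR-128 at -0.00085 and miR-219-5p above) were at the floor.

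Split by duration, the 14-day sets of both vehicles gave 0 calls in limma (9 with an unadjusted p under 0.05, 5.56%), and 7-day CO against 14-day MC gave 0 (4 with an unadjusted p under 0.05, 2.47%). Groups without overlap were found for 14 miRNAs higher (8.64%) and 9 lower (5.56%) in CO at 14 days, and for 7 higher (4.32%) and 8 lower (4.94%) in CO at 7 days. Both comparisons share the MC arrays. CO rats dosed for 7 and 14 days, the same vehicle on separate slides, also gave 0 calls, with 11 miRNAs (6.79%) at an unadjusted p under 0.05 a lowest adjusted p of 0.106, and 7 miRNAs higher and 7 lower without overlap (4.32% each). For CO against MC the number at this unadjusted level was 7. Without CO replicate 4, miR-199a-3p, a fibroblast and stellate cell miRNA, was 0.29 higher after 7 days and was called (limma, adjusted p = 0.00563), as was miR-29c* near the floor. Without CO replicate 1, miR-196c and miR-466b were lower after 7 days (2 calls), and miR-196c was 0.11 higher in CO than in MC of the same duration (1 call). miR-196c was detected on 1 of the 9 arrays and miR-466b on none.

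MC arrays detected slightly more miRNAs than CO arrays. The counts were 89, 90 and 82 (CO, 14 days), 96, 90 and 81 (CO, 7 days) and 94, 102 and 98 (MC), a difference of -10 with an exact two-sided permutation p of 0.0476 and 0.143 after adjustment over the 6 array measures tested. The groups overlapped through CO replicate 4. With the stricter mark of most spots well above background the difference was -10.7 (exact permutation p = 0.0714), and without any 1 rat it ranged from -8 to -12, with p below 0.05 only without CO replicate 4. The median spot brightness was 193.5 to 206 on CO arrays and 203 to 213 on MC arrays, with overlap. Its exact permutation p was 0.0714, and 0.143 after the same adjustment. Treated rats on the same slides gave 91 to 105 miRNAs (median 100.5, 4 arrays) on the slide of the MC rats and 85 to 111 (median 90, 9 arrays) on the slides of the CO rats. miR-872 alone was detected on all 3 MC arrays and no CO array, with levels of 7.58 to 7.60 in MC and 7.55 to 7.59 in CO rats, an overlap at the floor.

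**Figure D5:**
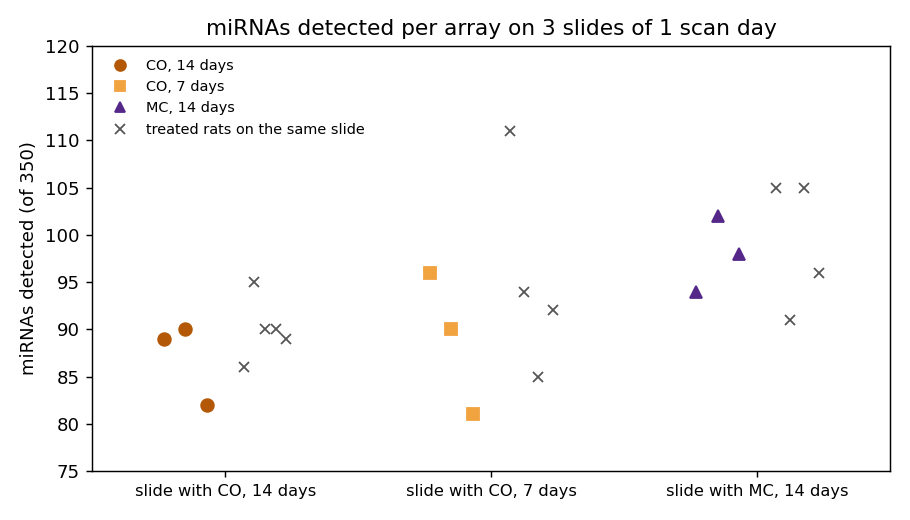
Number of miRNAs detected by the scanner software out of 350 (y axis, not starting at 0) for each array of 3 slides scanned on the same day (x axis); filled markers are vehicle rats (n = 3 per slide) and crosses are treated rats on the same slide. MC arrays lie at 94 to 102, CO arrays at 81 to 96, and the crosses on the MC slide lie at 91 to 105.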

How the data were processed

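Total RNA of rat liver was labelled with Cy3 and hybridized to 1-colour Agilent miRNA arrays, 1 per rat, and the deposited files hold the intensity of each spot as extracted by Feature Extraction 10.7.3.1. The labels state 25 ng of labelled RNA, whereas the methods of the study give another amount. The authors also deposited a table of log2 values made with a variant of RMA without background correction. Detection marks are those of the deposited scanner files.

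Mean spot intensity was taken without background correction, flagged spots were left out, and values were quantile-normalized over all 63 arrays, averaged per probe, set to log2 and summarized by median polish. limma 3.58.1 in R 4.3.3 was fitted to 21 groups over 162 miRNAs, with Benjamini-Hochberg adjustment at 0.05. The CO value is the mean of both CO sets. The fit was tested on simulated data. The number of arrays limits the precision. Exact permutation tests were two-sided. 

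The 20 brightest miRNAs, the 5 with the smallest p, and for each list the 2 brightest and the 2 with the largest difference were named. Members, lists and tests were chosen with earlier results of these data known. Replicate numbers 1 to 3 do not mark shared animals. Alternatives were the authors' table, other scalings and background corrections, filters, array subsets, slide or replicate blocks and leaving out each rat. No miRNA was left out of the order.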

Additional observations from a re-analysis of the deposited data

Results flagged for a closer look

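miR-122 in the 6 CO rats was the only one of the examined results in which 1 rat stood apart: CO replicate 6 read 14.59 and the next rat 14.65, a gap of 0.648 of the range of the group. A total of 28 results were examined, and chance alone gives such a gap in about 1 in 20 groups. CO replicate 6 was also the array with the lowest median brightness (193.5) and the fewest detected miRNAs (81) among the 9, and the part of brightness in the gap was not tested.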

How the results depend on the processing

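The 0 calls of CO against MC were kept with the authors' table, other scalings, normexp, all filters, array subsets, slide as a random block and no block (limma, with 0 to 19 miRNAs at an unadjusted p under 0.05), and gave 6 calls with slide as a fixed block. The random block could not separate slide from vehicle, because each vehicle set lay on its own slide (correlation within slide -0.13). The fixed block gave 1 call for the 14-day sets (miR-122) and 5 for 7-day CO against MC. Without the detection filter the 14-day sets gave 2 calls (miR-219-1-3p and miR-770, on none of the 9 arrays), and with the authors' table the CO sets gave 1 (miR-466b). Leaving out each rat gave 0 to 1 calls for CO against MC, 0 to 1 for each set against MC and 0 to 2 between the CO sets. The cause was not tested. The difference in detected miRNAs was -10.7 by the well-above-background mark and -8 to -12 without 1 rat. miR-23b, miR-151 and miR-107 kept their direction in every alternative, from 0.0045 to 0.264 in size. In the replicate block for the 14-day sets 0 miRNAs were called in limma, as without it (11 and 9 at an unadjusted p under 0.05). Deviations of same-numbered rats correlated at -0.47 to -0.24 and no rat was closest to its own number. So few pairs showed no pairing by number but cannot exclude one. The CO sets share no numbers. The dimmest miRNAs are limited by the floor.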
